A study of Mus musculus with 6 samples.

Results

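The 10 transcription factor genes of the B lineage followed here in leukaemic mouse spleen with and without Dox were Pax5, Ebf1, Spib, Pou2af1, Bach2, Bcl6, Irf4, Irf8, Prdm1 and Xbp1. They were taken from a list of factors of B cells and of plasma cells, the antibody-secreting cells that B cells become. That list was chosen with earlier results of these data known. All 10 of 10 were found among the 40808 Entrez gene IDs of the count table, and all 10 passed the low-count filter. Spib was the only one with a library under 10 counts, so it passed through its counts with Dox. RNA came from leukaemia cells of the spleen of mice given a bone marrow transplant, as 3 libraries without Dox (replicates 4, 5 and 6) and 3 with Dox (replicates 10, 11 and 12). The labels give the transplant and the leukaemia for both groups. The share of leukaemia cells in each library is not given. Neither the type of leukaemia, the engineered gene, the promoter that Dox acts on, the dose and duration of Dox nor strain, sex and age of the mice is given in the labels, and no sorting step is described. The libraries were 3' mRNA tag libraries, in which reads come from the ends of transcripts, and a count is of reads and not of transcripts. Nothing in the labels says whether the 3 libraries of a group came from separate mice, so p-values measure only the spread between these libraries.

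In the B lineage, EBF1 and PAX5 set and hold B cell identity: PAX5 switches on genes of the B cell receptor complex and shuts off genes of other lineages, NOTCH1 among them. The ETS factor SPIB, the coactivator POU2AF1 and the repressor BACH2 keep mature B cells responsive, and BCL6 is the repressor of the germinal centre. Plasma cell formation runs the other way: IRF4 at high level and PRDM1 (BLIMP1) shut down PAX5, BCL6 and SPIB, and XBP1 enlarges the secretory pathway. Several of these factors are also used outside the B lineage, IRF8 and SPIB in dendritic cells, IRF4, BCL6 and PRDM1 in T cells.

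The promoters of all members were examined as a planned description only. RefSeq (GRCm38.p6) gave 13 starts for the 10 genes, and the 250 bases before each start were searched on both strands. The composite site of ETS factors with IRF4 or IRF8 (GGAA, then 2 free bases, then GAAA) was found before Bach2 and before 1 of the 2 starts of Bcl6, and 2.3% of all 32851 promoters of that table held it. The octamer ATGCAAAT, the site of the POU factors that recruit POU2AF1, was in none of the 13 (1.6% of all promoters), nor were the EBF1 motif (TCCC, 2 free bases, GGGA; 0.779%), the PU box GAGGAAGT (2.44%) or the unfolded protein element ACGTGTCC (0.39%). The octamer core TGCAAAT, which lies inside the octamer and was added after the sequences had been seen, was present before Spib, Pou2af1 and Prdm1 (3.56% of all promoters). A match is a string of letters and not a measured binding site. Of the 5 sequences with a match, 4 follow, written 5′ to 3′ on the strand of the gene up to the base before the start, with the matched letters in capitals. They lie at chr4:32417185-32417434 (Bach2, plus strand), chr16:23981284-23981533 (Bcl6, minus strand, its inner start), chr7:44532072-44532321 (Spib, minus strand) and chr9:51213440-51213689 (Pou2af1, plus strand). For Bach2 and Prdm1 the RefSeq table held a start inside the gene and not the outermost one.
Bach2: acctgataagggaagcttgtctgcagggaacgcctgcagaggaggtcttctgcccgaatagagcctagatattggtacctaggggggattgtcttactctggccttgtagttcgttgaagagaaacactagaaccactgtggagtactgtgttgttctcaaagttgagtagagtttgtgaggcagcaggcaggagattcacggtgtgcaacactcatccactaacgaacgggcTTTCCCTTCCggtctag
Bcl6: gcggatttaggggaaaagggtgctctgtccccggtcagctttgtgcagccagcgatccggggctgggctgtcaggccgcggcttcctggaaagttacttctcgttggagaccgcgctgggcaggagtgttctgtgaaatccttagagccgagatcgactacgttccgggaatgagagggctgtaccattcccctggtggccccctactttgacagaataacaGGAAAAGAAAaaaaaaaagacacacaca
Spib: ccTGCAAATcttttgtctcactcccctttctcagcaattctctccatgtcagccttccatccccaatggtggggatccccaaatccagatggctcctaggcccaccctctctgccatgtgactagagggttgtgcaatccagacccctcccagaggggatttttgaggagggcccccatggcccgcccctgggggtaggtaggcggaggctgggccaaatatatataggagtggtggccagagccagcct
Pou2af1: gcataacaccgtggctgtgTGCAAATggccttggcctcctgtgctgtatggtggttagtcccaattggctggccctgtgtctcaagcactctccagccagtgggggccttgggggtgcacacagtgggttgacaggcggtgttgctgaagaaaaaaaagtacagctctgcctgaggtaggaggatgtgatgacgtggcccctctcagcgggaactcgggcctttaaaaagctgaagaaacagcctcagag
In Bach2 the composite letters, read on the opposite strand, lay 17 to 8 bases before the start, and in Bcl6 28 to 19 bases before it. The octamer core lay far upstream, from base 248 before the start in Spib and from base 231 in Pou2af1. The 2 genes with the composite letters differed in the counts: Bach2 rose steeply with Dox, and Bcl6 did not pass the test.

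Total counts were 5541486 to 7729988 per library without Dox and 6498193 to 8725767 with Dox. The groups also differed in ways that touch every value below. The 4 Y-linked genes counted together had 545 to 801 counts without Dox and 0 in each library with Dox, and Xist had 193 to 324 and 3347 to 5669 counts, so Dox and sex-linked expression cannot be told apart. Haemoglobin genes took 8.61% to 9.04% of counts without Dox and 14.13% to 15.89% with Dox. The common coefficient of variation between replicates was 0.19 without Dox and 0.516 with Dox. Low counts also differed: of genes with 1 to 30 counts in a library, 27.9% to 43% had 1 to 3 without Dox and 15% to 16% with Dox. Dox replicate 11 had the most reads but the fewest genes with a count (16671). The part of this shift in low counts in the values of the factors was not tested. The 16 listed T cell markers summed to 3611 to 3898 normalized CPM (reads scaled to a common depth and corrected for library composition) in the group without Dox and to 306.7 to 400.8 in the other.

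Of the 10 factors, 8 were higher with Dox and 0 were lower (edgeR quasi-likelihood test, adjusted p under 0.05). Among all 14110 genes tested, 23.6% were called higher and 22.1% lower, 45.6% in all. The fold changes fell into 2 ranges. Ebf1, Pax5, Spib, Bach2 and Irf8 each had a log2 fold change above 4, which 2.7% of tested genes reached with a call. Prdm1, Pou2af1, Irf4, Bcl6 and Xbp1 were each under 2. The median of the 10 was 2.92, beside 0.07 for all tested genes. No member had a negative log2 fold change, so none was lower at an unadjusted p under 0.05 either, and DESeq2 and limma-voom called 0 lower. In bulk RNA, more cells of a type and more RNA per cell cannot be told apart.

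**Figure D1:**
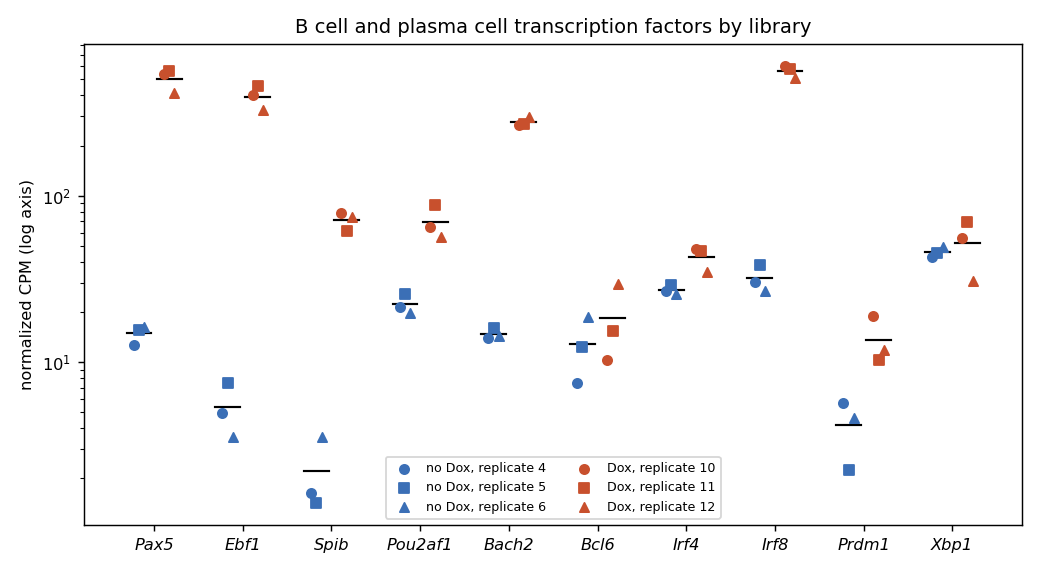
Normalized CPM (log axis) of the 10 factors in each library; points are libraries and black lines are group means, with the 3 libraries without Dox in blue and the 3 with Dox in orange. The groups are apart for 8 genes and overlap for Bcl6 and Xbp1.

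EBF1, the pioneer factor that opens B lineage chromatin, had the largest log2 fold change of the members before the span trend was removed. The difference in mean CPM was larger for Irf8 (530.8) and Pax5 (488.8) than for Ebf1 (387.6). Ebf1 (Entrez gene 13591; GRCm38.p6 chr11:44618100-45008096, plus strand) was at 4.92, 7.498 and 3.56 normalized CPM without Dox and at 400.1, 453.2 and 325.5 with Dox. Every library with Dox was far above every library without it. The log2 fold change was 6.22 ± 0.29 (SE; edgeR adjusted p = 9.87e-07), a rise of 74.4-fold, and 0.652% of tested genes had a larger one. PAX5, the keeper of B cell identity, followed. Pax5 (Entrez gene 18507; chr4:44524748-44710694, minus strand) was at 12.7, 15.6 and 16.3 CPM without Dox and at 538.8, 560.5 and 411.7 with Dox. Replicate 12 was the lowest of the Dox libraries for both genes, yet far above any library without Dox. Pax5 rose by 5.08 ± 0.21 on the log2 scale (SE; edgeR adjusted p = 5.38e-07), or 33.9-fold.

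The ratio of Ebf1 to Pax5 counts inside a library needs no scaling between libraries. Its log2 value (1 added to each count) was -1.34, -1.04 and -2.14 without Dox, against -0.43, -0.31 and -0.34 under Dox. The Dox libraries lay close together and above the others, a difference of 1.15, and the permutation test (exact, two-sided) gave p = 0.1, the smallest that 3 against 3 allows. Without Dox the Ebf1 counts behind it were 33, 37 and 21.

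A pair of non-coding genes lies inside the Pax5 span on the opposite strand. The transcript 5730488B01Rik (chr4:44702800-44705110, plus strand) had 1, 2 and 0 counts without Dox and 428, 302 and 323 with Dox, at least 84.3-fold higher against a floor of 3 counts per library (edgeR adjusted p = 7.37e-06). Gm12462 (chr4:44681211-44685904, plus strand) had 0 counts in each library without Dox and 138, 54 and 60 with Dox, at least 20.6-fold higher (edgeR adjusted p = 0.00066). Both thus had counts only where Pax5 was high, with the exception of 3 reads. They overlap 5 and 18 of the 141 exon records of Pax5 in GENCODE M21. The strand setting of the counting is not given in the sources used here, so reads of Pax5 and of these genes cannot be told apart with certainty. Bach2os, on the opposite strand inside Bach2, had 9, 6 and 3 counts without Dox and 0 in each library with Dox, too few to be tested.

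SPIB is an ETS factor of mature B cells and of plasmacytoid dendritic cells. Spib (Entrez gene 272382; chr7:44525995-44532087, minus strand) had 11, 7 and 21 counts without Dox and 574, 595 and 567 with Dox, that is 1.64, 1.42 and 3.56 CPM against 78.1, 61.2 and 74.7. The groups were far apart, and the level without Dox rests on few reads. The log2 fold change was 4.996 ± 0.36 (SE; edgeR adjusted p = 5.5e-06). Spib kept pace with Pax5: the log2 ratio of the pair averaged -2.76 ± 0.58 in the libraries without Dox and -2.81 ± 0.37 in the others (mean ± SD, n = 3), a difference of -0.06 (exact two-sided permutation p = 1). The spread within groups was several times larger than that difference.

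POU2AF1 (OCA-B) is a coactivator that works with octamer-binding POU factors and is used both in mature B cells and in plasma cells. Pou2af1 (Entrez gene 18985; chr9:51213690-51240079, plus strand) was at 21.5, 25.7 and 19.8 CPM without Dox and at 64.6, 87.8 and 56.3 with Dox. The groups did not overlap, with the highest value in replicate 11. It rose by 1.64 ± 0.24 on the log2 scale (SE; edgeR adjusted p = 0.00038), or 3.12-fold, much less than Pax5. Within libraries the log2 ratio of Pou2af1 to Pax5 went from 0.58 ± 0.26 to -2.87 ± 0.19 (mean ± SD, n = 3; permutation p = 0.1, exact and two-sided). Its POU partner Pou2f2 (OCT2) rose further, from 37.1 ± 7.4 to 324.5 ± 18.7 CPM (mean ± SD, n = 3; log2 fold change 3.13, edgeR adjusted p = 2.92e-06), and Pou2f1 (OCT1) rose by 0.63 (edgeR adjusted p = 0.016).

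BACH2 holds mature B cells back from plasma cell fate by repressing Prdm1, and is also used in T cells. Bach2 (Entrez gene 12014; chr4:32238413-32586109, plus strand) was at 13.9, 16.01 and 14.2 CPM without Dox and at 265.8, 271.1 and 298.9 with Dox. These were the tightest groups of the 10 with Dox, with a coefficient of variation of 6.38% against up to 54.1% for Bcl6. The log2 fold change was 4.24 ± 0.18 (SE; edgeR adjusted p = 5.38e-07), or 18.9-fold. Hmox1, a haem oxygenase gene that BACH factors repress, was at 73.2 ± 13.0 CPM without Dox and 43.0 ± 21.8 with Dox (mean ± SD, n = 3), and the difference did not pass the test (edgeR adjusted p = 0.119).

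BCL6, the repressor that drives the germinal centre reaction, did not follow the other B cell factors. Bcl6 (Entrez gene 12053; chr16:23965050-23988866, minus strand) was at 7.46, 12.4 and 18.7 CPM without Dox and at 10.2, 15.4 and 29.4 with Dox. The libraries overlapped and spread about as widely within groups as between them. The log2 fold change was 0.52 ± 0.46 (SE; edgeR adjusted p = 0.393), and without Dox replicate 12 it was -0.01. Of 11 germinal centre genes, 6 could be tested: the activation marker Cd83 rose (log2 fold change 3.49, edgeR adjusted p = 2.86e-05), the DNA glycosylase gene Neil1 fell by 1.36 (edgeR adjusted p = 0.019), and 4 did not pass. Both numbers are near the background of 23.6% higher and 22.1% lower among all tested genes. The call for Neil1 was lost without replicate 5 or 6 of the libraries without Dox, and without Dox replicate 11, 2 genes were higher. Mef2b had 0 counts in all 6 libraries.

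The 2 interferon regulatory factors are paralogues with different uses in the lineage, IRF8 in B cells and dendritic cells and IRF4 rising towards the plasma cell. Irf8 (Entrez gene 15900; chr8:120736358-120756694, plus strand) was at 30.4, 38.3 and 26.6 CPM without Dox and at 603.0, 578.4 and 506.4 with Dox. Irf4 (Entrez gene 16364; chr13:30749233-30766981, plus strand) was at 26.6, 29.2 and 25.8 CPM without Dox and at 47.8, 46.7 and 34.5 with Dox. Both had groups that did not overlap, but Irf8 rose by 4.15 ± 0.20 on the log2 scale (SE; edgeR adjusted p = 1.05e-06) and Irf4 by 0.66 ± 0.23 (SE; edgeR adjusted p = 0.035). The log2 ratio of Irf4 to Irf8 was -0.20, -0.39 and -0.05 in the group without Dox. Under Dox it was -3.65, -3.63 and -3.87, far below (difference -3.51, exact two-sided permutation p = 0.1). The call for Irf4 was lost in 5 of the 6 fits that left out a library, and its adjusted p ran from 0.0063 to 0.206 over the alternatives (edgeR, DESeq2 and limma).

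PRDM1, the repressor that ends the B cell programme, rose from a low level. Prdm1 (Entrez gene 12142; chr10:44437174-44528558, minus strand) had 38, 11 and 27 counts without Dox and 138, 100 and 90 with Dox, or 5.67, 2.23 and 4.58 CPM against 18.8, 10.3 and 11.9. Replicate 10 was the highest, and each Dox library exceeded every library without Dox. The log2 fold change was 1.70 ± 0.48 (SE; edgeR adjusted p = 0.016), and the call was lost without replicate 5 or 6 of the libraries without Dox or without Dox replicate 10 (adjusted p from 0.0034 to 0.084 over the alternatives). XBP1, the factor of the unfolded protein response and of secretion, did not pass the test. Xbp1 (Entrez gene 22433; chr11:5520641-5525993, plus strand) was at 42.8, 45.2 and 48.8 CPM without Dox and at 55.8, 69.7 and 30.8 with Dox. The libraries with Dox lay on both sides of those without (log2 fold change 0.19 ± 0.28 (SE), edgeR adjusted p = 0.607), and without Dox replicate 11 the value was -0.10. Counts per gene do not separate the spliced, active form of Xbp1 mRNA from the unspliced one.

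**Figure D2:**
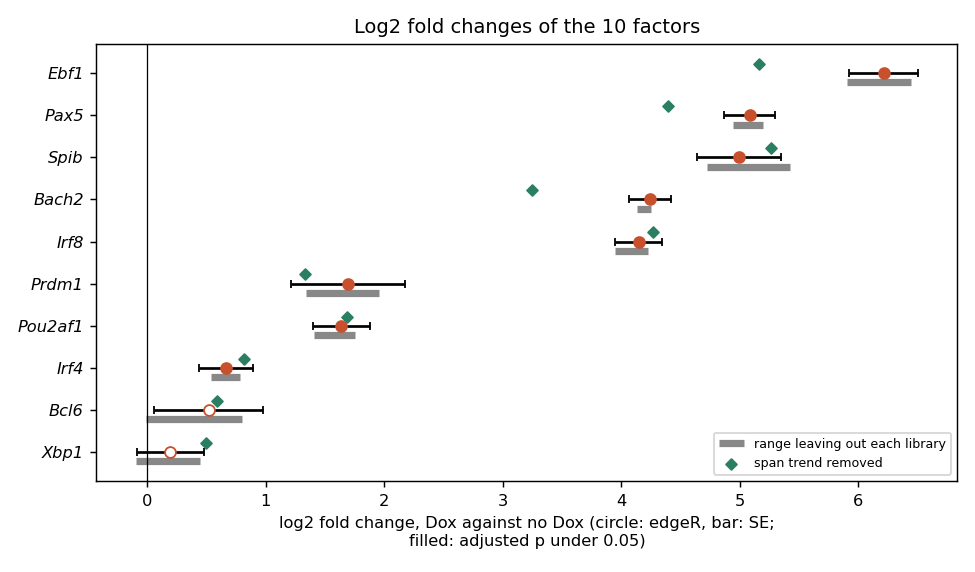
Log2 fold change of each factor (x axis) with its SE, the range over the 6 fits that leave out a library (grey bars) and the value with the trend over genomic span removed (green diamonds); filled circles passed the test. The fold changes of Ebf1, Pax5, Spib, Bach2 and Irf8 lie above 4, while the diamond of Bach2 (3.25) and the lower end of the range of Irf8 (3.95) lie below it, and the SE bar of Xbp1 crosses 0.

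Ratios of other factors to Prdm1 were taken inside each library. Which cells the reads came from was not measured, so such a ratio is not a balance within B lineage cells. The log2 ratio of Pax5 to Prdm1 was 1.14, 2.70 and 1.79 without Dox, against 4.83, 5.75 and 5.10 under Dox. For Bach2 to Prdm1 it was 1.27, 2.74 and 1.60 without Dox, against 3.81, 4.71 and 4.64 under Dox. Both ratios were higher in every library with Dox, by 3.35 and 2.52. Xbp1 to Prdm1 was lower in every library with Dox, by -1.60 on the log2 scale. Bcl6 to Prdm1 overlapped between groups (difference -1.25, exact two-sided permutation p = 0.3). Across the 18 ratios computed, 15 had groups that did not overlap, each with an exact permutation p of 0.1 and 0.12 after Benjamini-Hochberg adjustment, so none could pass 0.05 in this design. With Ms4a1 left out of the B cell sum described next, 13 did not overlap. The share of single genes whose groups do not overlap was 59.6% (Dox higher: 29.9%).

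**Figure D3:**
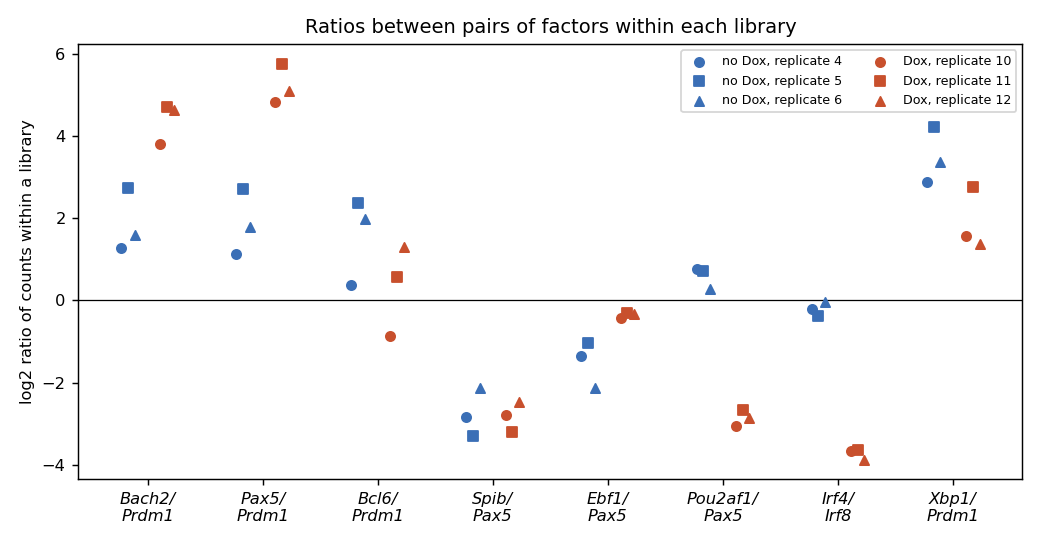
Log2 ratio of counts of 8 pairs of factors within each library (1 added to each count); blue without Dox, orange with Dox, 1 symbol per library. Pax5/Prdm1 and Bach2/Prdm1 are higher and Irf4/Irf8 and Pou2af1/Pax5 lower in each Dox library, while Spib/Pax5 and Bcl6/Prdm1 overlap.

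Each factor was also set against surface and signalling genes of B cells, the summed counts of Cd79a, Cd79b, Ms4a1, Cd22 and Blk. That sum was 97, 58 and 95 counts without Dox, against 6403, 8593 and 7217 under Dox. For Ebf1 the log2 ratio to the sum was -1.43 ± 0.75 in the group without Dox and -1.21 ± 0.30 in the other, with overlapping groups (mean ± SD, n = 3; permutation p = 0.7, exact and two-sided). Of the sum, Ms4a1 alone gave 4173, 5876 and 4493 counts with Dox but 27, 26 and 28 without, so the ratios were also taken to the other 4 genes, an alternative added after the data had been seen. Pou2af1, Irf4, Prdm1, Bcl6 and Xbp1 were lower relative to either sum in every library with Dox, by differences between -4.28 and -5.88 on the log2 scale with Ms4a1 and between -3.35 and -4.95 without it. Bach2 (-1.76 and -0.84) and Irf8 (-1.84 and -0.91) were lower too. Pax5 and Spib were lower only with Ms4a1 in the sum (-0.93 and -0.99), and without it their groups overlapped with differences of -0.001 and -0.06 (permutation p = 1 and 0.9, exact and two-sided). For Ebf1 the difference from 4 genes was 1.15 (permutation p = 0.2, exact), again with overlapping groups. Without Dox the reads of Xbp1 outnumbered those of the 5 B cell genes together (log2 ratio 1.56 to 1.93).

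The other regulators of the B lineage did not move as a block. Of 32 listed genes, 30 could be tested: 17 were higher, 8 lower and 5 did not pass, with a median log2 fold change of 0.62. Beside them, 23.6% of all tested genes were called higher and 22.1% lower, so the number lower is near the background. Mef2c, a factor downstream of the B cell receptor, went from 23.8 ± 1.5 to 656.0 ± 106.3 CPM (mean ± SD, n = 3; log2 fold change 4.78, edgeR adjusted p = 5.38e-07). Ciita, the master regulator of MHC class II genes and a gene that PRDM1 represses, went from 4.06 ± 1.15 to 77.5 ± 3.9 CPM (edgeR adjusted p = 3.09e-06). Spi1 (PU.1), used by B cells and myeloid cells, rose by 2.41 (edgeR adjusted p = 0.0042), and Ikzf3 (Aiolos) by 0.59 (edgeR adjusted p = 0.013). The falls were led by Id3, an inhibitor of E proteins, by -4.14, and Myc by -3.89 (edgeR adjusted p = 4.7e-05 and 1.87e-06). Tcf3, the E protein gene that acts upstream of Ebf1, was at 82.5 ± 15.4 and 86.5 ± 19.6 CPM (mean ± SD, n = 3; edgeR adjusted p = 0.822), and the abundant repressor gene Klf3 did not pass either (log2 fold change -0.08, adjusted p = 0.715).

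Genes known to be activated by PAX5 were mostly higher. Of 12, 9 were higher, 2 lower and 1 did not pass (median log2 fold change 4.62), and 8 of the 12 are also B cell markers. The shares among all tested genes were 23.6% higher and 22.1% lower. Cd72, with 0 counts in each library without Dox, was at least 6.51-fold higher (edgeR adjusted p = 0.0051). The complement receptor Cr2 had the largest rise, by 7.72 (edgeR adjusted p = 3.09e-06). Lef1 and Rag2, which early T cells use as well, had log2 fold changes of -3.88 and -3.80 (edgeR adjusted p = 1.87e-06 and 0.043), and the call for Rag2, with 0, 0 and 5 counts with Dox, was lost in 5 of the 6 fits that left out a library. Of 9 genes known to be repressed by PAX5, 8 could be tested, with 2 higher, 4 lower and 2 not passing (median log2 fold change -0.34), and the number higher is near the 23.6% of all tested genes. Lower were Notch1 (-3.21), the costimulator Cd28 (-3.28), the plasma cell proteoglycan Sdc1 (-3.87) and Jchain (-0.58). Higher were Flt3 (4.75) and Ccr2 (4.37), receptors of dendritic cells and monocytes, and Csf1r did not pass (edgeR adjusted p = 0.074).

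All 20 B cell markers were higher (median log2 fold change 5.31), from Ralgps2 (1.18) to Fcmr (8.13), the IgM Fc receptor. Ms4a1 (CD20) went from 4.68 ± 0.62 to 588.3 ± 18.7 CPM (mean ± SD, n = 3; edgeR adjusted p = 1.67e-07), and Cxcr5, the follicle homing receptor, was at least 35.6-fold higher. When only genes with 10 counts in every library were kept, 10 of the B cell markers were called higher, since the others were removed. The list as a whole summed to 232.9 to 244.6 CPM without Dox and 2250 to 2488 with Dox.

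Plasma cell markers were split. Of 16, 15 could be tested: 6 were higher, 3 lower and 6 did not pass (median log2 fold change -0.15), beside 23.6% higher and 22.1% lower among all tested genes, so the number lower is near the background. Higher were Slamf7 (3.70), Fcrl5 (3.27), Cd38 (2.58), the elongation factor Ell2 (1.72), Tent5c (1.40) and the chaperone cofactor Mzb1 (1.05), several of which other immune cells also express. Fcrl5 had 6, 0 and 6 counts without Dox (edgeR adjusted p = 0.022), and its call was lost without any 1 of these 3 libraries and with limma-voom. Sdc1 (CD138), the defining surface marker, went from 301, 150 and 204 counts to 7, 58 and 2 (log2 fold change -3.87 ± 0.76 (SE), edgeR adjusted p = 0.0023). Jchain, which links secreted IgM and IgA, was at 174.6 ± 9.1 and 116.8 ± 22.8 CPM (mean ± SD, n = 3; edgeR adjusted p = 0.024), and the degradation factor gene Edem2 also fell (-1.08, edgeR adjusted p = 0.018). The call for Jchain was lost in 4 of the 6 fits that left out a library (without replicate 4 or 5, or Dox replicate 10 or 11), and that for Edem2 in 2 (without replicate 4 or 6). Tnfrsf17 (BCMA) had 1 to 21 counts in every library and was not tested. Immunoglobulin genes took 0.1% to 0.116% of counts without Dox and 0.0861% to 0.11% with Dox.

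Genes of the secretory pathway and the unfolded protein response, many of them XBP1 targets, were called in both directions. Of 30 tested, 7 were higher, 11 lower and 12 did not pass (median log2 fold change -0.34), beside 23.6% of all tested genes called higher and 22.1% lower, so the number higher is close to the background. The 11 lower genes included the translocon genes Sec61a1 (-1.95), Sec61b (-1.97) and Sec61g (-1.25), Sdf2l1 (-2.05), Manf (-1.39) and Edem1 (-1.38). Higher were Ern1 (1.83), which encodes the IRE1 kinase that splices Xbp1 mRNA, the ligase gene Syvn1 (1.63), the stress response factors Atf6 (1.09) and Atf4 (0.89), the chaperones Calr (1.02) and Hsp90b1 (0.84), and the translocon-associated gene Ssr1 (0.85). Hspa5 (BiP), the main chaperone of the endoplasmic reticulum, was at 377.5 ± 35.1 and 320.9 ± 49.2 CPM (mean ± SD, n = 3; edgeR adjusted p = 0.271).

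**Figure D4:**
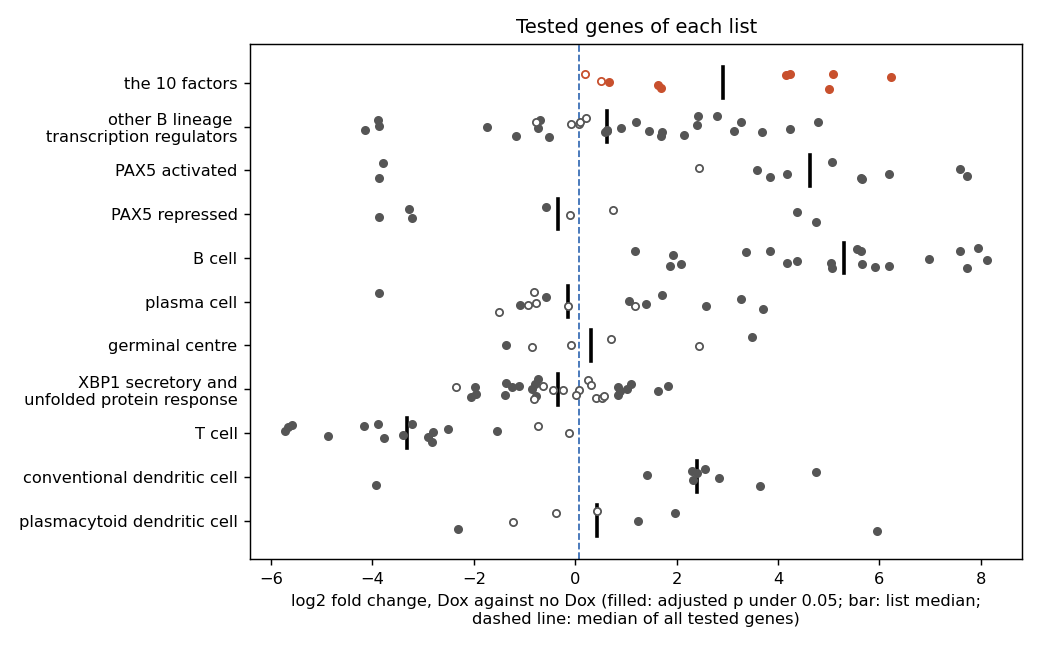
Log2 fold change (x axis) of every tested gene in the 10 factors and 10 other lists; filled points passed the test, black bars are list medians and the dashed line is the median of all tested genes. The B cell and PAX5-activated lists sit to the right, the T cell list to the left, and the plasma cell and XBP1 lists straddle 0.

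Markers of other cells that use these factors were also called, to be read against 23.6% higher and 22.1% lower among all tested genes, and their part in the results was not tested. Of 11 conventional dendritic cell genes 9 could be tested, with 8 higher and 1 lower, and the list summed to 198.2 to 221.7 CPM without Dox and 194.4 to 337.2 with Dox. The lower gene, Dpp4, which T cells also express, went from 142.4 to 9.41 CPM on average (edgeR adjusted p = 1.56e-06). The other 10 summed to 67.2 to 77.0 CPM without Dox and 184.0 to 327.4 with Dox. Flt3, Clec9a (3.64) and Xcr1 (2.84), which mark such cells, rose. Cd209a had 3, 0 and 0 counts without Dox and 0 in each library with Dox, too few to be tested. Of 10 plasmacytoid dendritic cell genes 7 could be tested, with 3 higher and 1 lower, and the sum was 253.1 to 299.0 CPM without Dox and 490.6 to 538.4 with Dox. Nearly all of that difference was Tcf4, an E protein gene also used in B cells, which went from 161.9 to 383.6 CPM on average (edgeR adjusted p = 0.00014). The other 9 summed to 109.9 to 126.2 CPM without Dox and 103.2 to 153.6 with Dox, and without Dox replicate 10 2 genes were called lower. Siglech, the defining one, had 0, 7 and 0 counts without Dox and 164, 247 and 246 with Dox (log2 fold change 5.95, edgeR adjusted p = 0.00037). Ccr9 was the lower gene (log2 fold change -2.32, edgeR adjusted p = 0.0013), and Bst2, Cox6a2 and Runx2 did not pass. Klk1 was at 0 without Dox and had 0, 19 and 0 counts with Dox. These values stand beside the rises of Irf8 and Spib. Of 14 macrophage and monocyte genes 13 could be tested, with 4 higher and 3 lower, shares near those of all tested genes, and sums of 725.7 to 867.0 and 949.2 to 1199 CPM. Without Dox replicate 12, 7 were higher, and without replicate 4 of the other group 1 was lower. All 12 neutrophil genes were higher (sums of 55.3 to 70.1 and 2306 to 2447 CPM), and 4 were called when only genes with 10 counts in every library were kept, since others were removed.

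T cells are another source of Irf4, Bcl6, Prdm1 and Bach2 RNA. Of the 16 T cell genes, 14 were lower, 0 higher and 2 (Cd2 and Cd5) did not pass, with a median log2 fold change of -3.31 and no gene at 0 in either group. For cytotoxic and NK cells, in which Prdm1 is also used, 9 of 12 genes could be tested: 5 were higher and 1, Gzma, lower, with 0 counts in each library with Dox. Without replicate 4 of the libraries without Dox 3 were higher, and without Dox replicate 12, 2 were lower. That list summed to 377.5 to 441.4 CPM without Dox and 84.5 to 109.6 with Dox, and Gzma alone averaged 362.6 CPM without Dox. The other 11 genes went the opposite way as a sum, from 36.5 to 46.3 CPM without Dox to 84.5 to 109.6 with Dox. Of 11 stromal and endothelial genes tested, 5 were higher and 2 lower, and the list summed to 413.0 to 442.3 CPM without Dox and 910.4 to 986.3 with Dox. The rises were the larger changes: the lymphoid stroma chemokine genes Ccl21a (2.28 to 226.6 CPM, log2 fold change 6.56), which has near-identical copies, Ccl19 (1.41 to 129.4 CPM, 6.45) and Cxcl12 (13.5 to 114.0 CPM, 3.08), with Dcn (2.09) and Kdr (1.85). The falls were Col1a1 (-0.80) and Pdgfrb (-0.83). Of 11 erythroid genes tested, 5 were higher and 2 lower. The counts of these lists are to be read against 23.6% higher and 22.1% lower among all tested genes. Without replicate 4 or 5 of the libraries without Dox, or Dox replicate 10 or 11, 3 erythroid genes were higher, and without replicate 4 or 5, or Dox replicate 10, 1 stromal gene was lower. Their part in the values of the factors was not tested.

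The length of the gene moved with the fold change. Across 10 equal groups of tested genes by genomic span, the median log2 fold change went from -0.51 in the shortest to 0.90 in the longest. Pax5 (185.9 kb), Bach2 (347.7 kb) and Ebf1 (390 kb) are in the longest group, of which 42.2% were called higher, while Spib (6.1 kb), Xbp1 (5.4 kb) and Irf8 (20.3 kb) are shorter. With the trend over span removed, an alternative added after the data had been seen, the log2 fold changes were 5.16 for Ebf1, 4.39 for Pax5 and 3.25 for Bach2, and 5.27 for Spib and 4.27 for Irf8. All 5 still passed the test, and the number of members higher was still 8. In that fit Spib, and not Ebf1, had the largest value, and Bach2 had the smallest of the 5.

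**Figure D5:**
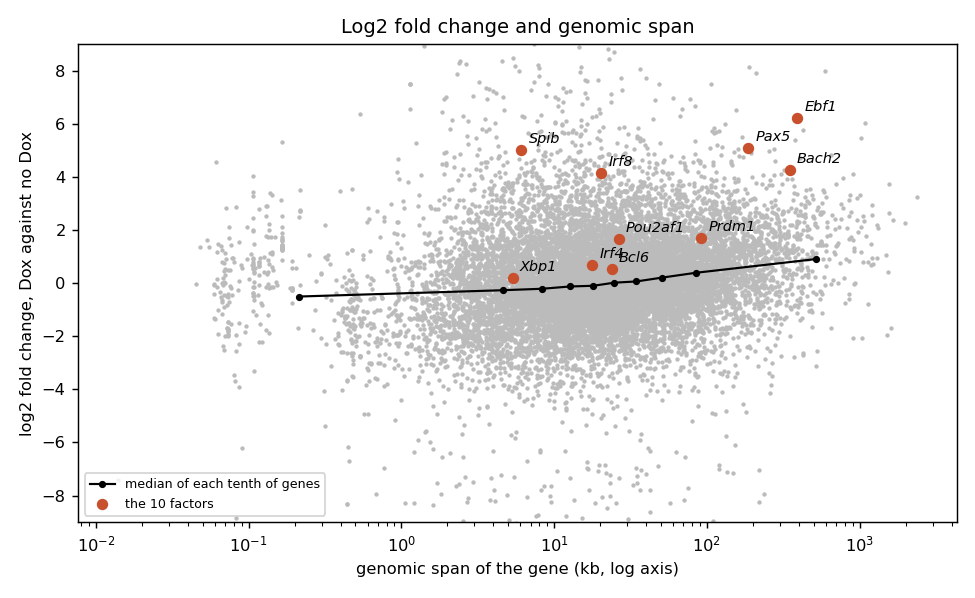
Log2 fold change (y axis, limited to 9 in either direction, leaving out 36 genes) against genomic span (kb, log axis) of all tested genes in grey, with the 10 factors in orange and the median of each of 10 span groups as a black line. Spib lies high among short genes, Irf8 among genes of middle span, and Pax5, Ebf1 and Bach2 among the longest.

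The genes most like each factor over the 6 libraries were found by the root mean square difference of log2 CPM, centred on each gene's mean, and this says nothing of shared function. For Irf4 these were Ppp2r5e (0.028) and Mafg (0.065), for Xbp1 Me2 (0.068) and Fbxo25 (0.079), and for Pou2af1 Pign (0.111) and Sc5d (0.118). Zfp608 was second nearest to both Pax5 (0.216) and Spib (0.208), with 10 to 20 counts without Dox and 630 to 862 with Dox. The nearest to Ebf1 was the chemokine gene Ccl21b (0.161), whose reads cannot be told apart with certainty from those of its near-identical copies, to Spib Trim30d (0.187), to Irf8 Gm51671 (0.099), to Bcl6 Cdc14a (0.204) and to Prdm1 Ctns (0.203). For Pax5 and Bach2 the nearest, Cd34 (0.169) and Clstn2 (0.133), had 0 counts in each library without Dox, so their likeness rests on the small count that is added before taking logs.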

How the data were processed

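Spleen RNA of 6 mouse libraries (3 without and 3 with Dox, grouped by title) was used. The authors deposited raw counts, whole numbers of reads per Entrez gene ID with 1 column per library and no pooling. Per the submitters' processing notes STAR, featureCounts and the build GRCm38 were used; their settings and versions, the annotation, the handling of strand and of reads with several positions are not given in the sources used here. Symbols came from the RefSeq table of GRCm38.p6 (39374 of 40808 IDs, 96.5%), and 0 columns were left over. Of 239 list entries only Ahsp was not found.

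Counts were tested with edgeR 4.0.16 (R 4.3.3): filterByExpr with a minimum count of 10 and a minimum total of 15, TMM scaling, quasi-likelihood F-test, no covariate, Benjamini-Hochberg adjustment over 14110 genes, threshold 0.05. Standard errors were derived from the log2 fold change and F. Ratios used counts plus 1 and exact two-sided permutation tests. A floor of 3 counts covers counting error only. DESeq2 1.42.0 and limma 3.58.1 served as alternatives. The code of the fit was also run on simulated data with the same spread in both groups. Spread differed between the groups here, so that run does not show how well the fit did on these data. The members and lists were chosen with earlier results of these data known. Named genes were the 10 factors; up to 2 called genes with the largest change in each direction and the most abundant uncalled gene of each list; a few genes of the network chosen by name; and the 2 genes nearest to each factor by profile. Other genes named (further list members, and the non-coding genes inside Pax5 and Bach2), the octamer core, the span correction and the B cell sum without Ms4a1 were chosen after the values were seen. Genes of the plan that are not reported here were left out of the text, and the sum of B cell genes was taken over 5 genes, 1 fewer than planned.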

Additional observations from a re-analysis of the deposited data

How the results depend on the processing

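Scaling (RLE, upper quartile, library size only), filters, DESeq2, limma-voom with and without quality weights, leaving out abundant gene families or each library in turn, removing the span trend, a threshold of 0.01 and, for ratios, adding 0.5 or 5 to counts were tried. No paired analysis was possible because replicates 4 to 6 and 10 to 12 have no number in common. Pax5, Ebf1, Pou2af1, Bach2 and Irf8 kept their direction and their side of the threshold in 16 alternatives each, and Spib in 15; with 10 counts required in every library Spib was not tested. The number of factors higher ran from 6 to 8 over the alternatives, and 0 were lower in each. Without a low-count filter the value for Irf4 was 0.525 (edgeR adjusted p = 0.206; range over alternatives 0.0063 to 0.206). Leaving out each library gave ranges of 0.54 to 0.78 for Irf4, 1.34 to 1.96 for Prdm1, -0.011 to 0.80 for Bcl6 and -0.10 to 0.44 for Xbp1, so that Bcl6 reversed without Dox replicate 12 (-0.011) and Xbp1 without Dox replicate 11 (-0.10). The same step moved the difference in the log2 ratio of Spib to Pax5 from -0.32 to 0.25, with reversals at 0.25 without replicate 6 of the libraries without Dox and 0.13 without Dox replicate 11. For Ebf1 to the B cell sum it ran from -0.13 to 0.62, reversed at -0.13 without replicate 6 of the libraries without Dox. With library sizes alone as the scaling, the all-gene median went from 0.07 to 0.38 (log2); the plasma cell list then had 1 gene lower in place of 3 and the other regulators 5 in place of 8. With 10 counts in every library, 4 PAX5-activated genes were higher in place of 9. Of the counts of the other lists, 456 stayed within 1.5 times their value and 54 did not. The causes were not tested. The counts of Spib and Ebf1 without Dox (7 to 37) limit the precision of their fold changes.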
